A study of Mus musculus with 4 samples.

Results

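Irradiated mouse microglia sampled 1 week after a single dose were compared with irradiated microglia sampled 6 h after it, to describe which of the genes raised early were lower later and which had kept their level. The comparison takes 2 of the 4 libraries of the study, namely the irradiated library at 1 week (2149 cells) and the irradiated library at 6 h (1986 cells), or 4135 of 8369 kept cells. The other 2 libraries, sham at 6 h (2652 cells) and sham at 1 week (1582 cells), give the change that microglia showed over the same interval without a dose. For the genes described, the change in sham is given beside that in irradiated cells. Exceptions are genes only named in a list, in a class or at a threshold, and Aaed1, given by its counts alone. Values under other settings and sham counts too few for a fold are further exceptions.

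All mice were C57BL/6, and the irradiated groups received 8 Gy to the whole brain at postnatal day 21 while the sham groups received none. Each group was 1 droplet library (10x Genomics Chromium) made from microglia pooled from 4 mice. The labels name the source as brain, the design text speaks of hippocampal microglia, and neither settles the region. The mice at 1 week were older than those at 6 h and were in another library, so time after the dose, age and library cannot be told apart within the irradiated pair. Because a group is a single library, no difference below has a replicate check. All intervals below are exact 95% intervals of counting error, and the spread between mice or cells is not in them.

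Microglia are the resident macrophages of the brain parenchyma and carry receptors such as P2ry12 by which they survey it. Ionising radiation breaks DNA, and the break stabilises the transcription factor p53, which turns on genes for cell cycle arrest (Cdkn1a), for cell death (Bax, Bbc3, Pmaip1) and for its own inhibition (Mdm2). Microglia also answer tissue damage with chemokines, interferon-induced genes and antigen presentation genes, and they lower homeostatic genes in doing so.

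Kept barcodes had a median of 3437 UMIs in irradiated cells at 1 week and 3512.5 at 6 h, where a UMI is a tag that counts a captured transcript once. The sham medians were 3594 and 3532.5, and the kept UMIs summed to between 5675117 and 9736149 per library. The label held: all 9 microglia markers were detected in every library, with a summed level of 49650 CPM (UMIs scaled to the same total in every library) in irradiated cells at 1 week and 39880 at 6 h, against 47790 and 49930 in sham. Cells with fewer than 5 of these 9 markers numbered 31 (1.56%) in the irradiated library at 6 h and 3 (0.14%) at 1 week, with 10 and 1 in the sham libraries at 6 h and 1 week. Summed markers of oligodendrocyte precursors stood at 10.7 CPM in the irradiated library at 6 h and between 0 and 0.411 in the other 3. Those of astrocytes stood at 265.7 CPM there and between 143.8 and 181.4 elsewhere. Monocyte markers summed to 72.5 CPM in irradiated cells at 6 h and 27.0 at 1 week (sham 60.2 and 22.2), and those of border macrophages to 47.7 and 24.5 (sham 48.1 and 20.1). Neutrophil markers had 0 UMIs in 3 libraries and 1 UMI in irradiated cells at 1 week. The part of these other cells in the results below was not tested, other than by counting only cells with 5 or more microglia markers, where 228 of the 231 decayed genes and all 18 held genes stayed in their class. The irradiated libraries shared 8 cell barcodes, and other pairs shared 4 to 12. The files hold 8486 barcodes, of which the filter kept 8369, and the design text states 8095 cells.

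Promoter sequences are shown first for the 4 raised genes whose window from 250 bases before to 50 bases after the start site (RefSeq, GRCm38.p6, the mm10 build) holds the full p53 consensus site with at most 1 mismatch. Such a site was in 4 of the 225 raised genes that have a window in the table (1.78%), in 6 of 6599 genes tested (0.0909%) and in 22 of 27025 genes in all (0.0814%). The capitals mark the site, searched on both strands, and each has 1 mismatch to the consensus. Cdkn1a lies at chr17:29090908-29090967 on the + strand, with the site starting 51 bases before the start site. Rps27l is at chr9:66946276-66946335 (+), Ccng1 at chr11:40755442-40755501 (-) and Gtse1 at chr15:85859925-85859964 (+).
Cdkn1a: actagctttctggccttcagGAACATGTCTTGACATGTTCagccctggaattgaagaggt
Rps27l: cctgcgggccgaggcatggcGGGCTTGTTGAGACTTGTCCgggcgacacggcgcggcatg
Ccng1: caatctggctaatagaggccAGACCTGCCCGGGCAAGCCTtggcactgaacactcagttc
Gtse1: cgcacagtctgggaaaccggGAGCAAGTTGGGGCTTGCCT
These 4 genes fall in different classes below: Cdkn1a held its level, Rps27l was partly decayed, and Ccng1 and Gtse1 decayed but stood above sham at 1 week. A site in the window is a description of its letters and does not show binding.

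Among the 14 interferon-induced genes that decayed, 9 had a window and 7 of these (77.8%) held the letters GAAANNGAAA on one of the strands, the core of the interferon-stimulated response element, against 1079 of 27025 genes (3.99%) and 253 of 6599 genes tested (3.83%). Over all 42 tested genes of the interferon list, decayed or not, 32 had a window and 19 of these (59.4%) held it. The element is thus common in the list as a whole. The members shown are the antiviral genes Isg15, at chr4:156200867-156200916 (-), Rsad2, at chr12:26456543-26456592 (-), Ifit1, at chr19:34640765-34640814 (+), and Ifitm3, at chr7:141010733-141010762 (-), with the element in capitals. No window of a raised gene held both this element and the p53 site.
Isg15: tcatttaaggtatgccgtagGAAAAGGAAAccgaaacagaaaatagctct
Rsad2: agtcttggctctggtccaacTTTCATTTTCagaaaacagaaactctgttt
Ifit1: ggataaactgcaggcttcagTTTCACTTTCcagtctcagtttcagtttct
Ifitm3: ttcatcaagccaaaattcagGAAAAGGAAA
Ifit3 and Ifit3b carried the element in windows with the same letters, and their counts may share reads between these close copies.

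Of the 8524 genes with at least 100 UMIs over both irradiated libraries, 368 (4.32%) were at least 2-fold lower at 1 week than at 6 h in irradiated cells and 136 (1.6%) at least 2-fold higher. The floor is on the sum of both libraries, so a gene with few counts could enter through the library where it was high. Over the same interval sham cells had 94 genes lower (1.1%) and 33 higher (0.387%). Of the 368 genes that were lower, 231 had been raised at 6 h, and of the 136 that were higher, 72 had been lowered at 6 h. Sham cells were at least 2-fold lower too in 60 of the 368 genes and at least 2-fold higher in 3 of the 136. The median log2 change over all genes tested was 0.04 in irradiated cells and -0.05 in sham cells.

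A gene was called raised if irradiated cells at 6 h stood at least 2-fold above sham at 6 h with the counting interval above 1-fold. This gave 321 genes, or 3.77% of those tested. The irradiated library at 6 h is on both sides of this choice and of the change over the week, so a gene that counting error placed too high at 6 h also looks lower later. The level over sham at 1 week uses neither library at 6 h. The change in sham uses sham at 6 h, which is also in the choice of raised genes. A gene that counting error placed too low there therefore also looks higher later in sham. The raised genes had a median log2 change of -1.37 in irradiated cells and 0.02 in sham cells, and 315 of the 321 were lower at 1 week in irradiated cells, against 152 in sham.

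Decayed was used for raised genes at least 2-fold lower at 1 week, which were 231 (72% of 321), and 85 of these were at least 4-fold lower. By their level at 1 week, 56 of the decayed genes were still at least 2-fold above sham, 18 lay between 1.5-fold and 2-fold above it, 123 were within 1.5-fold of it and 33 were at least 1.5-fold below it. The remaining gene, Celf5, had 130 UMIs in irradiated cells at 6 h, 1 in sham at 1 week and 0 in the other libraries, so it was at least 45.4-fold lower in irradiated cells, with 0 counts put at 3. Another 56 raised genes were lower by between 1.5-fold and 2-fold (partly decayed). The held genes, which stayed within 1.5-fold of their level at 6 h or were above it and stood at least 2-fold above sham at 1 week, were 18 (5.61%). The last 16 kept their level while not 2-fold above sham. Sham cells changed less than 1.5-fold in 158 of the 231 decayed genes, were at least 2-fold lower in 30 and at least 2-fold higher in 10. At the edges, Ppm1a and Mknk2 stood at a log2 level over sham of 1.002 at 6 h and were taken in, and Neu1 at 0.998 and Plk3 at 0.997 were left out. Ccl12 and Bcl2l1 were just decayed, with log2 changes of -1.001 and -1.006, and Hpcal1 and Pdgfa just missed it at -0.997 and -0.986. The held genes closest to the limit were Pgpep1 and Tgm2, with log2 levels over sham at 1 week of 1.02 and 1.04.

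**Figure D1:**
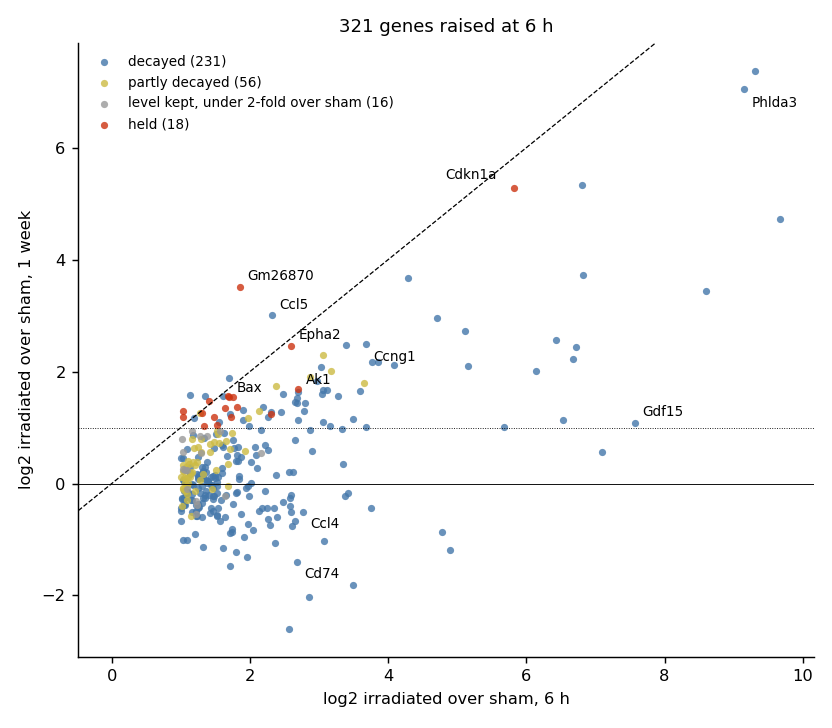
Each point is one of the 321 genes raised at 6 h, with log2 irradiated over sham at 6 h on the x axis and at 1 week on the y axis; colours give the class, the dashed line marks equal levels over sham and the dotted line 2-fold over sham at 1 week. Celf5 has no value at 1 week and is not drawn. Of the held genes (red), Cdkn1a lies near the dashed line at 5.82 and 5.28, Ak1 further under it at 2.70 and 1.68, and Gm26870 above it at 1.86 and 3.51. Most decayed genes (blue) lie near or under 0 at 1 week.

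At 1 week, 110 of the genes tested (1.29%) were at least 2-fold above sham with the interval above 1-fold. Of these, 78 had been raised at 6 h and 32 had not. The plot of levels over sham shows both times for all raised genes with a value.

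Targets of p53 were read from 6 lists ordered by role, with 58 of 59 symbols matched and 46 genes tested. Of the 46, 28 were raised at 6 h (3.77% over all genes) and 20 at 1 week (1.29% over all genes), and 22 were at least 2-fold lower at 1 week in irradiated cells (4.32% over all genes) against none higher (1.6%). The median log2 change over the 46 was -0.88 in irradiated cells and 0.00 in sham. Of the 28 raised targets, 21 decayed, 3 decayed in part, 3 held and 1 kept its level under 2-fold over sham, next to 72% decayed and 5.61% held over all 321 raised genes. Of the 21 that decayed, 15 (71.4%) were still at least 2-fold above sham at 1 week, next to 41 of 210 (19.5%) decayed genes outside these lists. The 28 raised targets had started higher, at a median log2 level over sham of 2.92 at 6 h. The 293 raised genes outside the lists had stood at 1.52. Their median log2 changes in irradiated cells were alike, -1.363 and -1.366 (sham -0.025 and 0.041). The shares were not compared at an equal starting level. The lists were composed of known radiation targets, so these shares describe the members and are not independent evidence.

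Cdkn1a, which encodes the cyclin-dependent kinase inhibitor p21 (ENSMUSG00000023067, mm10 chromosome 17, 29090976 to 29100727, + strand), held. It had 508 (sham) and 21689 (irradiated) UMIs at 6 h, and 322 in sham and 17026 in irradiated cells at 1 week. These are levels of 52.2, 2944, 56.7 and 2206 CPM. Both irradiated libraries stood far above both sham libraries, and the level at 1 week was 74.9% of that at 6 h. The log2 change was -0.42 (interval -0.45 to -0.39) in irradiated cells and 0.12 (-0.09 to 0.33) in sham, and the gene was still 38.9-fold above sham at 1 week after 56.4-fold at 6 h.

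Phlda3, whose product holds back the kinase Akt (ENSMUSG00000041801, chromosome 1, 135766119 to 135769136, + strand), decayed from a higher multiple. It had 6 and 2577 UMIs in sham and irradiated cells at 6 h, and 5 and 899 at 1 week, or 350 CPM and then 117 CPM in irradiated cells. The log2 change was -1.59 (-1.70 to -1.48) in irradiated cells and 0.52 (-1.54 to 2.49) in sham, where the counts are too few to place it. At 1 week Phlda3 was 132-fold above sham, with a log2 interval from 5.82 to 8.67. Both irradiated libraries stood above both sham libraries, as for Cdkn1a, but Phlda3 was at 33.3% of its early level.

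Among the feedback regulators of p53, Mdm2, the ubiquitin ligase that marks p53 for degradation, Ccng1, which encodes cyclin G1, and Trp53inp1 decayed, while Zmat3, an RNA-binding protein, held. Mdm2 had 470 and 1713 UMIs in sham and irradiated cells at 6 h and 256 and 797 at 1 week, a log2 change of -1.17 (-1.29 to -1.05) against -0.10 in sham. Ccng1 had 243 and 2355 UMIs at 6 h and 91 and 694 at 1 week, a change of -1.83 against -0.64 in sham. Zmat3 had 51 and 130 UMIs at 6 h and 27 and 107 at 1 week, a change of -0.35 (-0.73 to 0.03) against -0.14. Trp53inp1 had a change of -1.33 against 0.12. All 4 were still at least 2-fold above sham at 1 week. Transcripts of Trp53 itself, which were not raised at 6 h (1115 UMIs in sham, 811 in irradiated cells), were lower at 1 week in both arms, with 227 and 273 UMIs and log2 changes of -1.64 in irradiated and -1.52 in sham cells.

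The other raised targets for cell cycle arrest decayed. Plk2, a polo-like kinase, had 13 and 350 UMIs in sham and irradiated cells at 6 h and 11 and 64 at 1 week, a log2 change of -2.52 against 0.54 in sham. Gtse1, a regulator of p21 and p53, had 6 and 119 UMIs at 6 h and 2 and 21 at 1 week, a change of -2.57 against -0.81. Psrc1 had 12 and 178 UMIs at 6 h and 3 and 52 at 1 week, a change of -1.84 against -1.22. The sham counts of these 3 genes are small, and all 3 stood above sham at both times.

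The cell death targets split. Bax, whose product opens the outer mitochondrial membrane, had 1369 and 5384 UMIs in sham and irradiated cells at 6 h and 765 and 3468 at 1 week, so its log2 change was -0.70 (-0.76 to -0.64) against -0.06 in sham. Bbc3, which encodes PUMA, changed by -0.78 (-0.90 to -0.66) against 0.38 in sham and was 4.03-fold above sham at 1 week. Both are in the partly decayed class. Pmaip1, which encodes NOXA, changed by -2.12 against 0.00 in sham, the death receptor gene Fas by -1.90 against -0.31, and the nuclease gene Aen by -1.16 against -0.01, and these 3 were still at least 2-fold above sham. Perp went below sham: it had 50 and 142 UMIs at 6 h and 30 and 21 at 1 week, a change of -2.82 against 0.04, and a log2 level over sham of -0.96 (-1.84 to -0.11). Ei24 changed by -1.35 against 0.05 and came within 1.5-fold of sham.

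Of the 5 genes in the list of brakes on Akt and mTOR, Phlda3, Sesn2 and Ddit4 were raised and decayed. Sesn1 and Prkab1 were not raised (log2 -0.86 and -0.41 against sham at 6 h) and had log2 changes of 0.63 and 0.57 in irradiated cells against -0.08 and -0.16 in sham. Sesn2 had 100 and 614 UMIs in sham and irradiated cells at 6 h and 48 and 275 at 1 week, a log2 change of -1.23 against -0.28. Ddit4 had 1305 and 2156 UMIs at 6 h and 215 and 871 at 1 week, a change of -1.38 in irradiated cells against -1.82 in sham. Ddit4 was therefore no closer to sham at 1 week (log2 1.58) than at 6 h (1.13), although it counts as decayed. Of the 5 raised genes for repair and metabolism, 4 decayed: Dcxr, a carbonyl reductase, changed by -1.56 against 0.00, the epoxide hydrolase gene Ephx1 by -1.48 against 0.44, Aldh4a1 by -1.05 against 0.13, and Def6 by -1.01 against -0.04. Of these 4, Dcxr alone was still 2-fold above sham. Polk, a translesion DNA polymerase, changed by -0.98 against -0.25 and is in the partly decayed class.

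Among the signalling and secreted targets, Gdf15, a stress-induced cytokine of the TGF-beta superfamily (ENSMUSG00000038508, chromosome 8, 70629393 to 70632456, - strand), decayed most and Epha2, a receptor tyrosine kinase (ENSMUSG00000006445, chromosome 4, 141301240 to 141329384, + strand), did not decay. Gdf15 had 19 and 2735 UMIs in sham and irradiated cells at 6 h, and 29 and 83 at 1 week. At 1 week it stood at 2.9% of its early level in irradiated cells, a log2 change of -5.11 (-5.44 to -4.79), while sham changed by 1.39 (0.51 to 2.31). Epha2 had 78 and 357 UMIs at 6 h and 53 and 394 at 1 week, a change of 0.08 (-0.14 to 0.29) against 0.22 in sham, and was 5.47-fold above sham at 1 week. At 6 h the multiple of Gdf15 over sham, 190-fold, had been far larger than that of Epha2, 6.05-fold; at 1 week it was the smaller, 2.11-fold. The thiamine transporter gene Slc19a2 changed by -1.39 against -0.48 and was still raised, and Abhd4 changed by -1.59 against -0.19 and came within 1.5-fold of sham. The last raised member, 9030617O03Rik, changed by -0.32 against -0.11 and was just under 2-fold over sham at 1 week (log2 0.95).

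**Figure D2:**
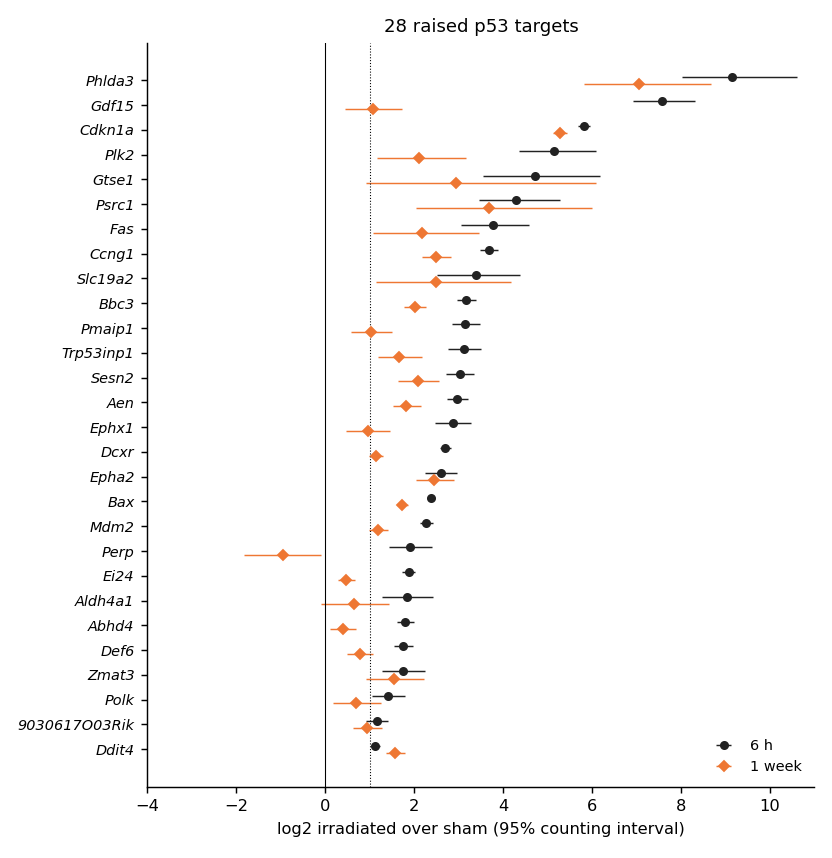
The x axis is log2 irradiated over sham and each line of the plot is one of the 28 p53 targets raised at 6 h, with black circles for 6 h, orange diamonds for 1 week and bars for the 95% counting interval; the dotted line is 2-fold. Cdkn1a, Zmat3 and Epha2 have overlapping or nearly overlapping marks, Gdf15 drops from 7.57 to 1.07, and Perp is under 0 at 1 week.

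The plot of p53 targets shows each level at 1 week against the starting level. The 2 targets highest over sham at 6 h, Phlda3 and Gdf15, differ by less than 2 log2 units at 6 h (9.15 and 7.57) and lie far apart at 1 week (7.05 and 1.07). Several genes outside the lists, singled out after their values were seen, had a similar course to Phlda3. D630023F18Rik had 2 and 963 UMIs in sham and irradiated cells at 6 h and 2 and 452 at 1 week, a log2 change of -1.16. Fam212b had 8 and 677 UMIs at 6 h and 6 and 328 at 1 week, a change of -1.11 against 0.36 in sham. Matn1, which encodes the extracellular protein matrilin 1, had 1 and 618 UMIs at 6 h and 4 and 143 at 1 week, a change of -2.18 against 2.78 in sham.

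Besides Cdkn1a, Zmat3 and Epha2, 15 genes held: Ak1, Zfp958, Mmp2, Ccl2, Alox5, Pgpep1, Pla2g4a, Ccnd1, Prune2, Gm9949, Ehd1, Lrrc28, Tgm2, Aaed1 and Gm26870. The log2 changes of the 18 held genes had a median of -0.28 in irradiated cells and 0.16 in sham, and none changed 2-fold in sham. Their median level over sham was 1.69 at 6 h and 1.36 at 1 week on the log2 scale.

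Ccl2, the chemokine that draws monocytes through Ccr2 (ENSMUSG00000035385, chromosome 11, 82035571 to 82037453, + strand), had 778 and 2067 UMIs in sham and irradiated cells at 6 h and 457 and 1595 at 1 week. In CPM these are 79.9, 281, 80.5 and 207. Sham was level, with a log2 change of 0.01 (-0.16 to 0.18), and irradiated cells changed by -0.44 (-0.54 to -0.35). Ak1, an adenylate kinase, had 313 and 1537 UMIs at 6 h and 260 and 1133 at 1 week, a change of -0.51 (-0.62 to -0.40) against 0.51 in sham. Ak1 therefore came closer to sham, from 6.49-fold above it at 6 h to 3.2-fold at 1 week, although it counts as held. For both genes the irradiated libraries were above both sham libraries.

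A pair of held genes act in sequence in leukotriene synthesis. Pla2g4a encodes the cytosolic phospholipase A2 that frees arachidonic acid, and had 694 and 1683 UMIs in sham and irradiated cells at 6 h and 351 and 1413 at 1 week, a log2 change of -0.32 against -0.21 in sham. Alox5, the 5-lipoxygenase that acts on that acid, had 196 and 395 UMIs at 6 h and 82 and 308 at 1 week, a change of -0.43 against -0.48. Their log2 levels over sham were 1.68 and 1.41 at 6 h and 1.57 and 1.47 at 1 week. Ccnd1, which encodes cyclin D1, had 773 and 1937 UMIs at 6 h and 555 and 1729 at 1 week, a change of -0.23 against 0.30. The matrix metalloproteinase gene Mmp2 had 100 and 372 UMIs at 6 h and 87 and 280 at 1 week, a change of -0.48 against 0.58. After thinning to 2000 UMIs per cell, 11 of the 18 held genes were still called held, and Mmp2, Ehd1, Zfp958, Pgpep1, Prune2, Gm9949 and Aaed1 were not.

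Gm26870 was the held gene that went up most over the week. This long non-coding RNA gene (ENSMUSG00000097312, chromosome 9, 3000282 to 3038313, - strand) had 110 and 302 UMIs in sham and irradiated cells at 6 h and 59 and 913 at 1 week, or 11.3, 41.0, 10.4 and 118 CPM. The log2 change was 1.53 (1.34 to 1.72) in irradiated cells and -0.12 (-0.60 to 0.35) in sham, and the level over sham went from 3.63-fold to 11.4-fold. The gene lies at the start of the assembled chromosome and 9 genes annotated on the other strand overlap it. Those 9 together had 13 (sham) and 7 (irradiated) UMIs at 6 h, and 2 and 8 at 1 week. Whether reads from similar sequence elsewhere were counted here was not tested. Of the other held genes, Ehd1, a regulator of endocytic recycling, had 37 and 91 UMIs in sham and irradiated cells at 6 h and 25 and 99 at 1 week. Its log2 change was 0.06 against 0.21 in sham. Aaed1, the least counted, had 26 and 40 UMIs in sham and irradiated cells at 6 h, then 18 and 60.

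**Figure D3:**
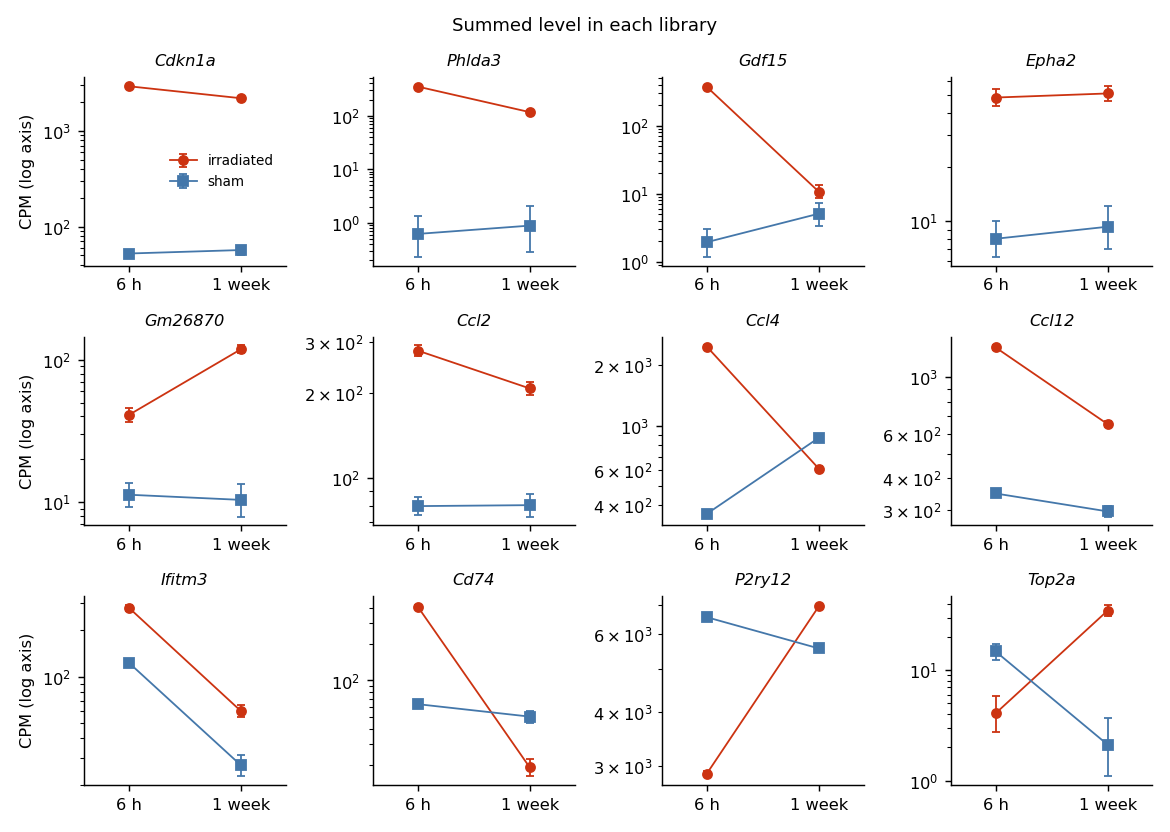
Each panel gives the summed level of one gene in CPM on a log axis with its own range, at 6 h and 1 week, for irradiated cells (red circles) and sham cells (blue squares), with bars for the 95% Poisson interval. Cdkn1a, Epha2 and Ccl2 stay well above sham at 1 week, Gm26870 goes up in irradiated cells, Ccl4 and Cd74 go from above sham to below it, Ifitm3 is lower at 1 week in both arms, and P2ry12 and Top2a go from below sham to above it.

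The chemokine and cytokine list had 19 of 29 genes tested. Of these, 9 were at least 2-fold lower at 1 week in irradiated cells (4.32% over all genes) and 1 was higher (1.6%). In sham, 1 was lower (1.1% over all genes) and 3 were higher (0.387%). Of the 12 raised genes of the list, 8 decayed, next to 72% of all 321 raised genes. Another 2 decayed in part (Osm and Tnfsf9), Ccl2 held (5.61% of all raised genes did) and Tnf kept its level under 2-fold over sham. The median log2 change of the 19 was -0.92 in irradiated cells and 0.18 in sham.

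The chemokine genes Ccl4 and Ccl3 crossed over with sham. Ccl4 had 3534 and 18244 UMIs in sham and irradiated cells at 6 h and 4930 and 4709 at 1 week, which is 363, 2477, 869 and 610 CPM. Its log2 change was -2.02 (-2.07 to -1.98) in irradiated cells and 1.26 (1.20 to 1.32) in sham. Ccl3 had 3002 and 11142 UMIs at 6 h and 4105 and 3339 at 1 week, a change of -1.81 (-1.86 to -1.75) against 1.23 (1.16 to 1.30). At 1 week both stood below sham, by log2 levels of -0.51 and -0.74. Tnf had 129 and 436 UMIs at 6 h and 224 and 443 at 1 week, so that its level in irradiated cells changed by -0.04 (-0.24 to 0.15) while sham changed by 1.57.

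The monocyte-attracting chemokines Ccl12 and Ccl7 stayed above sham. Ccl12 had 3396 and 9623 UMIs in sham and irradiated cells at 6 h and 1683 and 5038 at 1 week, a log2 change of -1.001 (-1.05 to -0.95) against -0.23 in sham, and was 2.2-fold above sham at 1 week. It left the decayed class under a stricter cell filter (-0.93) and without the deepest 2% of barcodes (-0.86). Ccl7 changed by -1.42 against -0.24 and had a log2 level over sham of 1.27 at 1 week. Cxcl16, Csf1 and Cxcl10 changed by -2.79, -2.70 and -2.56, against 0.18, -0.10 and 0.70 in sham, and were near or under sham at 1 week.

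Ccl5 had the lowest log2 change of all decayed genes, but its sham change was as large. It had 564 and 2132 UMIs in sham and irradiated cells at 6 h and 3 and 33 at 1 week, changes of -6.08 (-6.62 to -5.59) in irradiated cells and -6.78 (-9.06 to -5.22) in sham. Ccl5 was thus low at 1 week in both arms, where age and library cannot be told apart. At 6 h, Ccl5 had a UMI in 2.07% of kept sham cells and 6.85% of kept irradiated cells. Few cells therefore set its sums, and the counting intervals leave that out. Markers of T and NK cells, which also make Ccl5, had 6 (sham) and 3 (irradiated) UMIs at 6 h, and 2 in each library at 1 week, with 5 of the 7 matched markers at 0 in all 4 libraries. Whether the Ccl5 UMIs came from such cells was not tested.

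Interferon-induced genes were also lower at 1 week in both arms. Of the 42 tested of 46 in the list, 21 were at least 2-fold lower at 1 week in irradiated cells (4.32% over all genes) and 17 in sham (1.1% over all genes), and the medians were -0.95 and -0.69. With the sham change taken away, 10 of the 21 were still at least 2-fold lower, next to 244 of the 368 lower genes over all genes tested. These net counts were added after the data had been seen. All 14 raised members decayed, 10 of them to within 1.5-fold of sham. Over all raised genes 72% decayed, and 123 of those 231 came within 1.5-fold of sham. Ifitm3, which blocks virus entry, had 1203 and 2068 UMIs in sham and irradiated cells at 6 h and 152 and 464 at 1 week, with changes of -2.22 (-2.37 to -2.08) in irradiated cells and -2.21 (-2.46 to -1.96) in sham. Its log2 level over sham was thus 1.18 at 6 h and 1.17 at 1 week. Isg15, a ubiquitin-like protein, had 605 and 1242 UMIs at 6 h and 171 and 251 at 1 week, changes of -2.37 and -1.04. Rsad2, which encodes viperin, had 113 and 289 UMIs at 6 h and 18 and 19 at 1 week, changes of -3.99 and -1.87. The last 2 were within 1.5-fold of sham at 1 week.

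**Figure D4:**
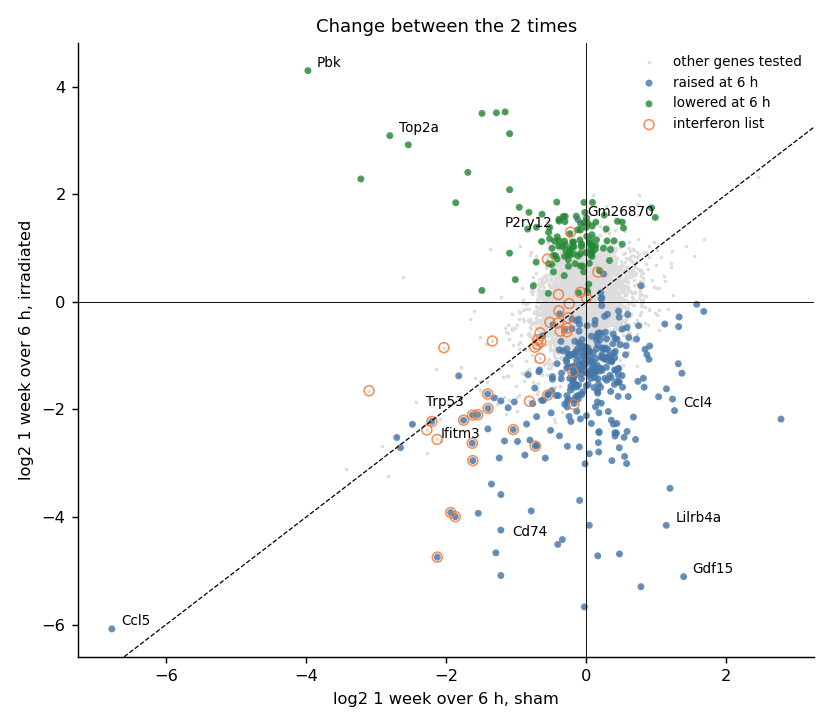
Each point is one of the genes tested that has a value in both arms, with the log2 change from 6 h to 1 week in sham on the x axis and in irradiated cells on the y axis; the dashed line marks equal change. Most genes raised at 6 h (blue) lie under the line with sham changes near 0, while many interferon genes (orange rings) and Ccl5, Ifitm3 and Trp53 lie close to the line. Genes lowered at 6 h (green) lie above it, with Pbk and Top2a at 4.30 and 3.09.

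The MHC class II list had 3 of 7 genes tested at least 2-fold lower at 1 week in irradiated cells (4.32% over all genes) and none in sham (1.1%). Cd74, the invariant chain of MHC class II, had 620 and 3003 UMIs in sham and irradiated cells at 6 h and 285 and 147 at 1 week, or 63.7, 408, 50.2 and 19.1 CPM. The irradiated change was -4.42 (-4.67 to -4.18) and the sham change -0.34 (-0.55 to -0.14), and at 1 week the irradiated library stood below sham with a log2 level of -1.40 (-1.70 to -1.11). H2-Ab1 had 109 and 269 UMIs at 6 h and 88 and 43 at 1 week, a change of -2.71 against 0.47. H2-Aa had 7 and 146 UMIs at 6 h and 4 and 3 at 1 week, a change of -5.67 (-7.97 to -4.10) against -0.03 in sham, which in irradiated cells was -3.29 without the deepest 2% of barcodes. Markers of dendritic cells other than Siglech, which microglia share, summed to 7.33 CPM in irradiated cells at 6 h and 12.8 at 1 week (sham 17.7 and 23.8), and those of B cells to 39.5 and 67.8 (sham 90.1 and 74.5). In irradiated cells both sums were lower at 6 h, when these 3 genes were higher, while the monocyte and border macrophage sums given above were higher at 6 h. The part of such cells in the class II values was not tested. Other members of the class II list (H2-DMa, H2-DMb1, H2-DMb2 and H2-Oa) changed by 0.58, 0.78, 0.81 and -0.28, against 0.02, 0.27, 0.10 and 0.03 in sham. Of class I, H2-K1 had 3859 and 8856 UMIs at 6 h and 1919 and 2975 at 1 week, a change of -1.64 against -0.23, while H2-Q6 changed by -2.28 in irradiated cells and -2.48 in sham.

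In the list of disease-associated microglia, a state described in neurodegeneration, 10 of 29 genes tested were at least 2-fold lower at 1 week in irradiated cells (4.32% over all genes) and none was higher. In sham 3 were lower (1.1% over all genes) and 1 was higher (0.387%). Its 8 raised genes all decayed, and none was 2-fold above sham at 1 week. Over all 321 raised genes, 72% decayed and 24.3% were still raised at 1 week. Lgals3, which encodes galectin 3, had 110 and 492 UMIs in sham and irradiated cells at 6 h and 89 and 20 at 1 week, a log2 change of -4.69 (-5.41 to -4.05) against 0.47. The inhibitory receptor gene Lilrb4a had 28 and 238 UMIs at 6 h and 36 and 14 at 1 week, a change of -4.16 (-5.05 to -3.38) against 1.14. Axl, a receptor tyrosine kinase for dying cells, had 76 and 199 UMIs at 6 h and 19 and 11 at 1 week, a change of -4.24 against -1.22. These 3 stood below sham at 1 week. Apoe was not raised at 6 h and was lower at 1 week in both arms, by -0.81 and -1.04.

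The 3 raised members of the oxidative stress list, the metallothionein genes Mt2 and Mt1 and Hmox1, heme oxygenase 1, decayed (72% of all raised genes did). Mt2 had 91 and 736 UMIs in sham and irradiated cells at 6 h and 79 and 96 at 1 week, a log2 change of -3.01 (-3.33 to -2.70) against 0.57. Mt1 changed by -1.46 against 0.29 and Hmox1 by -1.86 against 0.16. From the immediate early list, the transcription factor gene Atf3 had 904 and 2079 UMIs at 6 h and 1164 and 710 at 1 week, a change of -1.62 against 1.14, and Gadd45b changed by -1.33 against 1.36, both to below sham. Id2, in the TGF-beta list, an inhibitor of basic helix-loop-helix factors, had 879 and 4026 UMIs at 6 h and 1047 and 1242 at 1 week, a change of -1.76 against 1.03.

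Other decayed genes with the lowest log2 changes had few transcripts at 1 week. Rab7b, a GTPase of late endosomes, had 10 and 225 UMIs in sham and irradiated cells at 6 h and 10 and 6 at 1 week, a log2 change of -5.30 (-6.76 to -4.15) against 0.78 in sham. Crip2 had 2 and 207 UMIs at 6 h and 3 and 6 at 1 week, a change of -5.18. Glipr2 had 4 and 260 UMIs at 6 h and 1 and 8 at 1 week, a change of -5.09 against -1.22. Chst2, a sulfotransferase gene, had 23 and 126 UMIs at 6 h and 15 and 5 at 1 week, a change of -4.72 against 0.16. AI607873, an interferon-induced gene, changed by -4.75 against -2.13. Below 10 UMIs at 1 week the counting intervals span 2 to 3 log2 units, so these genes cannot be ordered among themselves.

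In the other direction, 117 genes (1.37%) had been at least 2-fold lower than sham at 6 h, and 72 of them were at least 2-fold higher at 1 week than at 6 h in irradiated cells. As for the raised genes, both libraries at 6 h are in this choice and in the changes over the week. A gene that counting error placed too low in irradiated cells at 6 h also looks higher later. One placed too high in sham at 6 h also looks lower later in sham. P2ry12, the purinergic receptor by which microglia sense ATP breakdown products (ENSMUSG00000036353, chromosome 3, 59216272 to 59262871, - strand), had 63955 and 21255 UMIs in sham and irradiated cells at 6 h and 31640 and 53629 at 1 week. In CPM these are 6569, 2886, 5575 and 6950. The irradiated change was 1.27 (1.25 to 1.29) and the sham change -0.24 (-0.26 to -0.22), which put the irradiated library above both sham libraries at 1 week. Slc2a5, a fructose transporter gene of microglia, changed by 1.85 against 0.09, and Sall1, a transcription factor of microglial identity, by 1.05 against 0.07. Of the 34 homeostatic genes, all tested, 4 were at least 2-fold higher at 1 week in irradiated cells, next to 1.6% over all genes (these 3 and Ecscr, at 1.24 against 0.19) and none was lower. Their median was 0.33 against 0.00 in sham. Tmem119 changed by 0.27 against 0.03, and Csf1r, the receptor that microglia need to survive, by -0.16 against -0.27.

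Of the 72 recovered genes, out of 117 lowered and 8524 tested, 11 were in the list for G2 and mitosis and 4 in the list for S phase. Of 18 tested of 46 in the former list, 13 were at least 2-fold higher at 1 week in irradiated cells (1.6% over all genes), while 9 were at least 2-fold lower in sham (1.1% over all genes). The medians were 1.71 and -1.03, and the irradiated median was 0.755 without the deepest 2% of barcodes and 0.087 after thinning to 2000 UMIs per cell. The floor was applied anew to the counts of each setting, with 6989 genes tested after thinning. These medians can therefore be over fewer members and do not give the change of the same 18 genes. Top2a, which encodes DNA topoisomerase II alpha, had 144 and 30 UMIs in sham and irradiated cells at 6 h and 12 and 268 at 1 week, a log2 change of 3.09 (2.55 to 3.69) against -2.81 (-3.79 to -1.96). Mki67, the proliferation marker, had 53 and 10 UMIs at 6 h and 11 and 119 at 1 week, a change of 3.51 (2.58 to 4.60) against -1.49. Pbk, a mitotic kinase gene, had 54 and 6 UMIs at 6 h and 2 and 124 at 1 week, a change of 4.30 against -3.98. Without the deepest 2% of barcodes Top2a changed by 2.33 and Mki67 by 2.40.

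These UMIs lay in few cells. Cells with a UMI of at least 3 of 8 mitosis genes (Top2a, Mki67, Cdk1, Birc5, Ube2c, Cdc20, Cenpf and Racgap1, chosen after the values were seen) numbered 31 of 2149 irradiated cells at 1 week (1.44%, exact binomial interval 0.982 to 2.04%) and 4 of 1986 at 6 h (0.201%, 0.0549 to 0.515%). In sham they numbered 16 of 2652 at 6 h (0.603%) and 3 of 1582 at 1 week (0.19%). At 1 week the 31 cells carried 87.8% of all UMIs of the 8 genes in irradiated cells, and their median depth was 6177 UMIs. They were deeper than the library median, and the part of depth or of doublets in these counts was not tested. For S phase, 7 of 20 genes tested were at least 2-fold higher at 1 week in irradiated cells (1.6% over all genes) and none lower (4.32%). The median was 0.82 against -0.17 in sham. After thinning it was 0.435, over the members that still passed the floor. As for mitosis, members low at both times were not tested. Rrm2, a ribonucleotide reductase subunit, had 48 and 18 UMIs at 6 h and 0 and 92 at 1 week, a change of 2.29 in irradiated cells, while sham was at least 9.33-fold lower. Cdkn1a was at 2206 CPM in the same library.

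Late genes were those at least 2-fold above sham at 1 week, less than 1.5-fold above it and not lowered at 6 h, and at least 1.5-fold higher at 1 week than at 6 h in irradiated cells. They were 7: Dut, Rfc4, Cenpl, Plpp3, Fbxo5, Epor and Slc43a3. Their counts in irradiated cells were small, between 71 and 111 UMIs at 1 week, and sham was lower at 1 week in each. Dut and Rfc4, genes of DNA synthesis, changed by 1.499 and 1.20 against -0.57 and -0.25. With a floor of 200 UMIs none of the 7 was tested.

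Whether a level was spread over many cells was read after each cell had been thinned to 2000 UMIs, which kept 1896 irradiated cells at 6 h and 2040 at 1 week. Cdkn1a had a median of 5 UMIs per cell at 6 h and 3 at 1 week, with 90th percentiles of 11 and 10, against a median of 0 in both sham libraries. Before thinning the medians were 9 and 6. The 10th percentile was 1 at 6 h and 0 at 1 week, and thinned cells with 12 or more UMIs were 9.07% at 6 h and 5.54% at 1 week, so both ends were lower at 1 week. P2ry12 had medians of 5 and 14 UMIs per cell in irradiated cells and 13 and 11 in sham at 6 h and 1 week, so its level moved in the typical cell.

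Genes of like mean differed in how they were spread. At 6 h Phlda3 and Gdf15 had mean levels of 0.708 and 0.671 UMIs per thinned cell in irradiated cells. The 10% of cells with the most UMIs of the gene held 37.6% of the Phlda3 UMIs and 88.9% of the Gdf15 UMIs, and the 99th percentiles were 4 and 13.1. Ccl2 was as uneven as Gdf15, with 90.7% of its UMIs in the top 10% of cells at 6 h and 95.5% at 1 week, at means of 0.493 and 0.418. Ak1, another held gene, had 50.8% and 51% there at means of 0.422 and 0.298. The held class therefore includes genes read in many cells and genes read in few. For uneven genes such as Ccl2 and Gdf15, a few cells set the sum, and the counting intervals above leave that out.

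**Figure D5:**
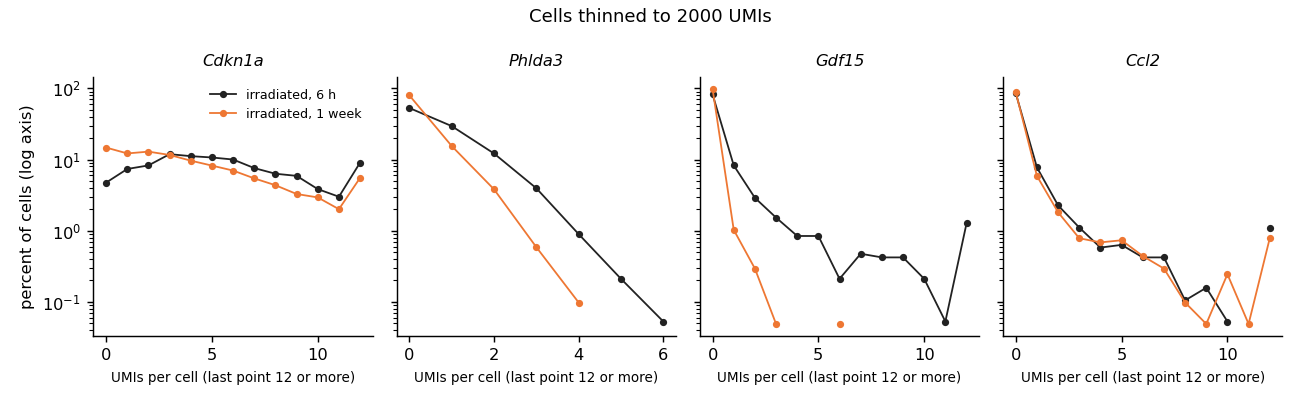
Percent of irradiated cells (log axis) by the number of UMIs of the gene in cells thinned to 2000 UMIs, at 6 h (black, 1896 cells) and 1 week (orange, 2040 cells); the last point pools 12 or more, and counts with 0 cells are not drawn. Cdkn1a is broad at both times, Phlda3 ends at 6 UMIs, Gdf15 has a long tail at 6 h that is nearly gone at 1 week, and Ccl2 keeps its tail.

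Some of the genes that were lower at 1 week had not been raised at 6 h, and these numbered 137. Sham was at least 2-fold lower too in 30 of them, for example in the glucose transporter gene Slc2a3, which had 478 and 485 UMIs in sham and irradiated cells at 6 h and 39 and 54 at 1 week, log2 changes of -3.23 in irradiated cells and -2.84 in sham. The lists for ribosomal proteins (35 genes tested), the nuclear respiratory chain (34), the mitochondrial respiratory chain (12) and heat shock (15) had no member 2-fold higher or lower in irradiated cells. Xist, expressed from the inactive X chromosome, changed by 0.50 in irradiated cells and 0.17 in sham.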

How the data were processed

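Raw UMI counts of 27998 genes were deposited by the authors for 4 libraries. The submitters' processing notes name Cell Ranger 2.0 and mm10, while which barcodes were called cells, and with which annotation, is not given in the sources used here. Barcodes with at least 1000 UMIs, 500 genes and at most 10% mitochondrial UMIs were kept, which removed 18, 37, 41 and 21 barcodes (sham 6 h, irradiated 6 h, sham 1 week, irradiated 1 week). UMIs were summed per library and scaled to CPM. No doublet caller was run. Each log2 fold has a 95% interval from the exact binomial distribution of its pair of counts, a count of 0 was put at 3, and no fold is given where both counts are 3 or fewer. With 1 library per group no test was made. The calculation was tested on simulated data. Coordinates come from GENCODE vM21 by gene identifier (27645 of 27998 matched) and promoters from RefSeq.

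The 29 gene lists (664 symbols, 5 unmatched), the classes and the members were chosen with earlier results of these data known. Named genes were the raised p53 targets, the decayed, held, late and recovered genes with the largest change or level, up to 8 per list, and 20 fixed genes. Outside this rule, the other held genes, the genes at the thresholds, Ccl7, Osm, Tnfsf9, Ifit1, Ifit3, Ifit3b, Cdk1, Cenpf, Racgap1, D630023F18Rik, Fam212b and Matn1 were named after their values were seen. Cell filters, scaling, the floor of UMIs and the fold that is called were varied. Python 3.11.15, numpy 2.4.6, scipy 1.17.1 and pandas 2.3.3 were used.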

Additional observations from a re-analysis of the deposited data

Results flagged for a closer look

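In 19 genes the irradiated and the sham arm each changed at least 2-fold between 6 h and 1 week, in opposite directions and beyond counting error. With 1 library per arm and time the difference between the arms was not tested. The values are the log2 change in irradiated cells minus that in sham cells.

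Lower in irradiated and higher in sham cells were Gdf15 (-6.50), the inhibitory receptor gene Lilrb4a (-5.30), the chemokines Ccl4 (-3.28) and Ccl3 (-3.04), Id2 (-2.80), the stress response genes Atf3 (-2.76) and Gadd45b (-2.69), and AY036118 (-2.46). In sham at 6 h, Gdf15 and Lilrb4a had 19 and 28 UMIs.

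Higher in irradiated and lower in sham cells were genes of mitosis and DNA synthesis, namely Racgap1 (3.18), Cenpf (3.71), Cdca8 (4.10), Birc5 (4.23), Cdc20 (4.69), Ube2c (4.80), Mki67 (4.996), 2810417H13Rik (5.46), Rrm2 (5.51), Top2a (5.90) and Pbk (8.28). Rrm2 had 0 UMIs in sham at 1 week, so its value uses 3 counts there. Pbk had 2 UMIs there.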

How the results depend on the processing

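No paired analysis was possible because each group is 1 library, and for the same reason no replicate could be left out. Counts of genes are given in the order lower and higher at 1 week in irradiated cells, raised at 6 h, decayed, held, late and recovered. They were 368, 136, 321, 231, 18, 7 and 72, and moved by over 1.5 times only as follows. Thinning to 2000 UMIs per cell, which tested 6989 genes, gave 89 higher, 152 decayed, 1 late and 38 recovered genes, and list medians of 0.435 for S phase and 0.087 for G2 and mitosis. The floor was applied to the thinned counts, so these list medians can be over fewer members than before thinning. A floor of 50 UMIs gave 231 higher, 23 late and 124 recovered, and a floor of 200 UMIs gave 79, 0 and 38. With no floor the counts were 1316, 662, 783, 589, 35, 63 and 232. At 1.5-fold they were 824, 677, 692, 523, 35, 26 and 394. A count net of the sham change, chosen after seeing the data, left 244 lower genes, with 189 decayed and 98 higher. The cause of these shifts other than the number of genes tested was not tested.

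Of the 231 decayed genes 208 remained decayed under the stricter cell filter, 228 among cells with 5 or more microglia markers, 207 without the deepest 2% of barcodes, 229 without shared barcodes and 139 after thinning. The other scalings kept all 231. Of the 18 held genes, 11 remained after thinning (not Mmp2, Ehd1, Zfp958, Pgpep1, Prune2, Gm9949 and Aaed1), Pgpep1 left under median-of-ratios scaling, Aaed1 under the stricter cell filter, without shared barcodes and without the deepest 2% of barcodes, and Prune2 under the last of these. No list median past 2-fold and no named gene past 2-fold changed sign under any alternative run on it. The sign did change for Ehd1, Gm9949 and Tnf and for 6 list medians, all within 2-fold in the values reported, among them MHC class II (-1.49 to 0.16 over the alternatives). Median-of-ratios scaling moved the all-gene median by less than 0.1 (to 0.01 in irradiated cells).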
